A study of Mus musculus with 800 samples.

Results

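Eomes, Tbr1, Tbx20 and Opn4 were followed in single cells of the embryonic mouse retina. They are 3 transcription factors of the T-box family and the photopigment melanopsin, and they were chosen by name, as 4 of the 49585 gene rows of the count table. All 4 were found once in it. The cells came from Sert-Cre embryos on the C57BL/6 background at embryonic day 15.5 and fall into 400 Tomato+ and 400 Tomato- cells. Both groups share the strain, the stage and the Cre line. Sert is the serotonin transporter, encoded by Slc6a4, and Tomato is a red fluorescent protein; the labels name neither the reporter allele nor the sorting gate. A Cre label, once switched on, stays on after its driver gene is shut off. Retinas were pooled before dissociation, 30 of them, and no cell is tied to an animal. Each group was therefore 1 pool without a replicate, and no p-value was computed. A cell was kept when it had at least 1000 genes and no more than 20% of its counts in mitochondrial transcripts, which left out 73 Tomato+ and 38 Tomato- cells.

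T-box factors bind DNA through a shared domain and often decide which subtype a young neuron becomes. In the mouse retina, retinal ganglion cells (RGCs), the neurons that send axons to the brain, divide into many subtypes. Eomes, also called Tbr2, is needed for the intrinsically photosensitive RGCs, the cells that make melanopsin and drive the pupil reflex and the daily clock. Tbx20 marks part of those cells in the adult, and Tbr1 marks other RGCs with dendrites in the OFF layers of the retina.

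The promoter sequences of Eomes, Tbx20 and Opn4 are shown first, because these 3 genes were found in the same cells. Each is the 250 bases before the transcription start in RefSeq on GRCm38.p6, written 5′ to 3′ in the direction of transcription, with CpG dinucleotides in capitals.

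Eomes, chr9:118477939-118478188, plus strand: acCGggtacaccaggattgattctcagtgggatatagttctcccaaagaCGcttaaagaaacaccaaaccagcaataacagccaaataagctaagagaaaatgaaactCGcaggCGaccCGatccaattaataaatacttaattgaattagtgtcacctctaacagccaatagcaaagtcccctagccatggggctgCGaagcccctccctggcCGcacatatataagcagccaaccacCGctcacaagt

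Tbx20, chr9:24774304-24774553, minus strand: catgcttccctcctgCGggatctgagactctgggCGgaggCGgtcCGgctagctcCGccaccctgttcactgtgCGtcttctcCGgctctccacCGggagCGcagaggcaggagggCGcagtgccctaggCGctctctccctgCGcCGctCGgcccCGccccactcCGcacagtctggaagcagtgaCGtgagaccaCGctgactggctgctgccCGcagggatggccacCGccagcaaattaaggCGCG

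Opn4, chr14:34600143-34600392, minus strand: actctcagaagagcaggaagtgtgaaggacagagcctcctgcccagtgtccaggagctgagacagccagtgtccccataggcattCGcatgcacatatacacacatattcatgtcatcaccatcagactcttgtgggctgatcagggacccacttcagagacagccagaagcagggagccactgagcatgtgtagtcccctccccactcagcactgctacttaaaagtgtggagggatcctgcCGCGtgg

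The windows differed in base composition. That of Tbx20 held 22 CpG dinucleotides and was 68.8% G or C, while that of Eomes held 8 at 46.4% and that of Opn4 held 3 at 54.8%. The median over 27025 mouse promoter windows was 6. The T-box half-site GGTGTGA, searched on both strands, was in none of these windows nor in that of Tbr1, and was in 3.31% of all promoter windows. The POU4F core ATTAAT, which reads the same on both strands, was in the Eomes window with its first base at chr9:118478065, and in the Tbr1 window 31 bases before the start. It was in neither the Tbx20 nor the Opn4 window and in 4.52% of all windows. In GENCODE vM21 on GRCm38, all 4 are protein-coding genes. Eomes lies at chr9:118478212-118486132, Tbx20 at chr9:24718138-24774303, Opn4 at chr14:34590618-34600142 and Tbr1 at chr2:61802930-61814114. The Tbr1 window, chr2:61804203-61804452 on the plus strand, was taken at the RefSeq start. It lies inside this GENCODE span of Tbr1, and so does its ATTAAT site.

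The kept cells had median totals of 271789 (Tomato+) and 243410 (Tomato-) counts and summed to 86301166 and 93484125 counts. The cells' titles carry numbers, 10 to each group, with 24 to 38 kept cells a number in Tomato+ and 35 to 39 in Tomato- cells. Nothing says what a number stands for, and no number occurs in both groups. Slc6a4, the gene whose promoter drives Cre, had 5 or more counts in 36.7% of kept Tomato+ cells and in 1 Tomato- cell (0.276%). Of 8 clusters found with the members left out of the clustering genes, 5 were RGC-like by their markers, 2 were progenitor-like and 1 stayed unnamed. RGC-like clusters held 96.3% of Tomato+ and 35.6% of Tomato- cells, and progenitor-like clusters 0.612% and 46.7%. Erythroid genes moved with the label, at 1716 CPM (counts scaled to a group total of 1000000) summed over 7 genes in Tomato+ cells, against 2.59 CPM in the others. A single cell held 50.7% of those Tomato+ counts, and 1 of the 7 genes reached 5 counts in at least 10% of the Tomato+ cells.

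Eomes was the most abundant of the 4 genes, and with 10 CPM added to both levels it had the largest log2 ratio between the labels. By plain CPM the fold was larger for Opn4, at 11.8 against 7.51 for Eomes. Summed over a group's cells and divided by the group total, Eomes stood at 213.8 CPM in Tomato+ cells, with an exact Poisson 95% interval of 210.8 to 216.95 CPM. In Tomato- cells it stood at 28.5 CPM, with an interval of 27.4 to 29.6 CPM. Such intervals, and the exact binomial ones given for shares of cells, cover counting error only. The level over the 10 title numbers ran from 143.5 to 293.3 CPM with a median of 206.3 CPM in Tomato+ cells, and from 0 to 71.01 CPM with a median of 33.6 CPM in Tomato- cells. Every Tomato+ number was thus above every Tomato- number. The log2 ratio of Tomato+ over Tomato- levels, with 10 CPM added to both, was 2.54, against an SD of 0.82 between title numbers. That difference ranked at position 3 among 10396 genes. Of those genes, 3% had a log2 ratio of at least 1 in this direction, and 1.64% had title numbers that did not overlap.

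**Figure D1:**
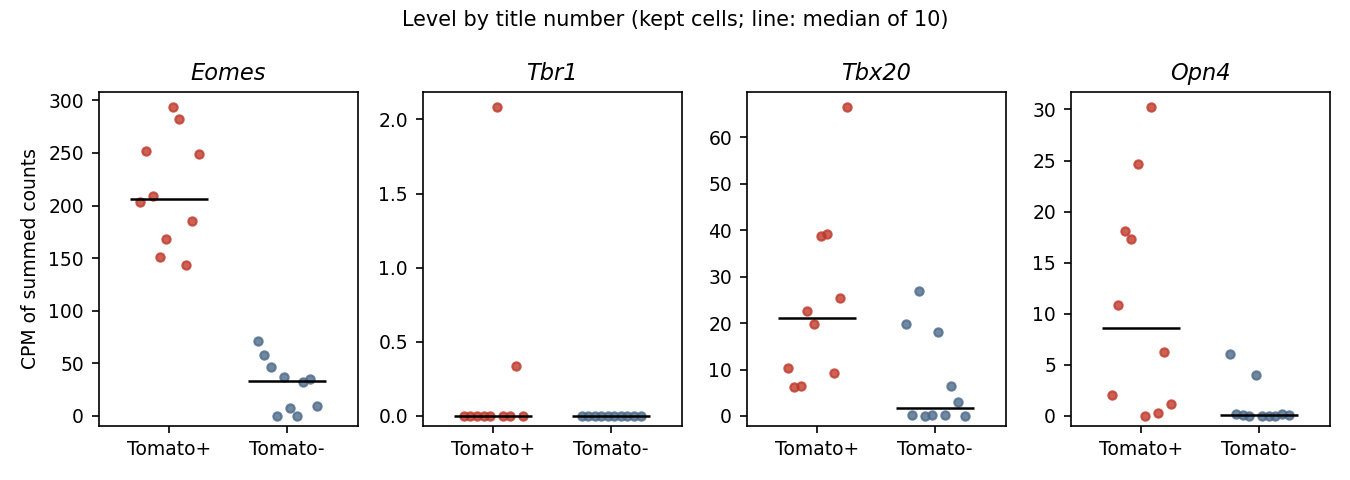
Level of each gene in CPM of summed counts (linear axes, 1 scale a gene) for the 10 title numbers of the Tomato+ cells and the 10 of the Tomato- cells, each point a title number and each line the median of 10. The Tomato+ points of Eomes run from 143.5 to 293.3 CPM and all lie above the Tomato- points, while those of Tbx20 and Opn4 overlap between the labels and Tbr1 is above 0 in only 2 Tomato+ numbers.

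At 5 or more counts, the level taken here as detection, Eomes was found in 36.4% of Tomato+ cells (interval 31.2% to 41.9%) and in 25 Tomato- cells (6.91%, interval 4.52% to 10.03%). Detected Tomato+ cells held between 5 and 1242 Eomes counts. In the 25 Tomato- cells the median was 33 counts. The 5 highest cells held 22.1% of the Eomes counts in Tomato+ cells and 56.3% in Tomato- cells. RGC subtype genes should be missing from progenitors: the progenitor-like cells without label had Eomes at 5 counts in 2 cells (1.18%, median total 228013 counts), but a count of at least 1 in 15.4%. The lower mark therefore takes in a background that the mark of 5 counts largely leaves out. With every cell thinned to 94783 counts, which left out 33 and 36 shallower cells, Eomes was in 34.01% of the labelled and 5.21% of the unlabelled cells.

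RGCs make up unequal parts of the labels, so the levels were also compared within RGC-like cells. Eomes stood at 217.99 CPM in those of Tomato+ and at 60.5 CPM in those of Tomato-, a log2 ratio of 1.69 with an SD of 1.18 between title numbers. Title numbers ran from 147.2 to 293.3 CPM and from 0 to 213.6 CPM, so the ranges overlapped. Among 10430 genes, 0.681% had a log2 ratio of at least 1 there and 0.0479% did not overlap. The RGC-like cells of the labels sat mainly in different clusters, 36.8% and 33.97% of the Tomato+ ones in clusters 0 and 1, and 40.3% and 26.4% of the Tomato- ones in clusters 6 and 3. Whether that mix sets the difference was not tested. The share of RGC-like cells with Eomes was 37.1% with the label and 13.2% without. In those cells its median level was 433.8 and 341.3 CPM.

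Tbx20 was far less abundant than Eomes. Its level was 22.3 CPM in Tomato+ and 7.11 CPM in the unlabelled cells, a log2 ratio of 0.92 with an SD of 0.76. Over title numbers the level ran from 6.19 to 66.4 CPM with a median of 21.1 CPM in Tomato+ cells, and from 0 to 26.9 CPM with a median of 1.69 CPM in Tomato- cells. The ranges overlapped, and the highest Tomato+ number, 10, held a single detected cell. Tbx20 was detected in 27 Tomato+ cells (8.26%, interval 5.51% to 11.8%) and 9 Tomato- cells (2.49%, interval 1.14% to 4.67%). In progenitor-like Tomato- cells the share was 1.18%, which lies within the Tomato- interval. A few cells carried much of the signal: the 5 highest held 51.1% of Tbx20 counts in Tomato+ and 93.985% in Tomato- cells. Within RGC-like cells the levels were 22.9 and 11.8 CPM, a log2 ratio of 0.60 with an SD of 0.99 that exceeds it. Without title number 13, which holds the RGC-like Tomato- cell with the most Tbx20 counts (728 CPM), that ratio was 0.93.

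Opn4, the melanopsin gene, was the rarest of the 3 in the number of cells. From 1033 and 95 counts, its level was 11.97 CPM with the label and 1.02 CPM without, a log2 ratio of 0.996 with an SD of 0.57. Over title numbers the level ran from 0 to 30.2 CPM with a median of 8.57 CPM in Tomato+ cells, and from 0 to 6.08 CPM with a median of 0.103 CPM in Tomato- cells. The ranges overlapped at the low end, since Tomato+ number 6 had no Opn4 count and number 8 had 0.337 CPM. It was detected in 18 Tomato+ cells (5.505%, interval 3.29% to 8.56%) and 3 Tomato- cells (0.829%, interval 0.171% to 2.40%). Progenitor-like Tomato- cells had it in 0.592% (interval 0.0150% to 3.25%), an interval that takes in the Tomato- share. Of the 3 Tomato- cells, 2 lay in cluster 7, with 52 and 26 Opn4 counts, and both held Eomes. Detected Tomato+ cells held a median of 32.5 Opn4 counts, and at least 7. Within RGC-like cells the levels were 12.3 and 2.09 CPM, with a log2 ratio of 0.88 and an SD of 0.66.

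Tbr1 was close to undetected. A total of 19 counts fell in 4 Tomato+ cells, as 8, 7, 3 and 1, and 2 of these cells reached 5 counts (0.612%, interval 0.0742% to 2.19%). All 4 cells were RGC-like and carried title numbers 6 or 9. No kept Tomato- cell had a count, which allows a share of cells with a count of up to 0.829% by 3 counts of the total and 1.01% by the exact interval; it sets no limit on cells that express the gene. One Tbr1 cell held 50 Eomes counts and the other none, and neither held Tbx20 or Opn4. Per kilobase of annotated exon, Tomato+ levels were in the order Eomes (51.5 CPM per kb), Opn4 (4.04), Tbx20 (1.86) and Tbr1 (0.0401), so Opn4 and Tbx20 change places against the order by plain CPM. The length used is that of all annotated exons of a gene. Whether a count is a read or a molecule is not stated, so whether these counts should be divided by length is not known.

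The detected cells were nearly all RGC-like in Tomato+: 98.3% for Eomes, 27 of 27 for Tbx20 and 18 of 18 for Opn4. In Tomato- cells, 17 of 25 Eomes cells, 5 of 9 Tbx20 cells and 2 of 3 Opn4 cells were RGC-like, and 6 of the Eomes cells lay in the unnamed cluster 4, led by Tfap2b, Neurod4 and Prdm1. Within the RGC-like class the shares differed between clusters, as a description of cells that were clustered on their other genes. Cluster 7, of 32 Tomato+ and 9 Tomato- cells, was led by Igf1, Synpr, Sparcl1 and Rgs4, and held Eomes in 63.4%, Opn4 in 24.4% and Tbx20 in 21.95% of its cells. Cluster 1 followed with Eomes in 43.2%, Tbx20 in 10.2% and Opn4 in 5.08%. Cluster 3 had Eomes in 25.6% and cluster 0 in 21.6%, with intervals that overlap. Cluster 6, mostly of Tomato- cells, had Eomes in 7.14%, with no cell at 5 counts of Tbx20 or Opn4 among 56. Cluster 7 did not hold all of them, since 48 Tomato+ Eomes cells (40.3%) were in cluster 1 and 21 (17.6%) in cluster 7.

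**Figure D2:**
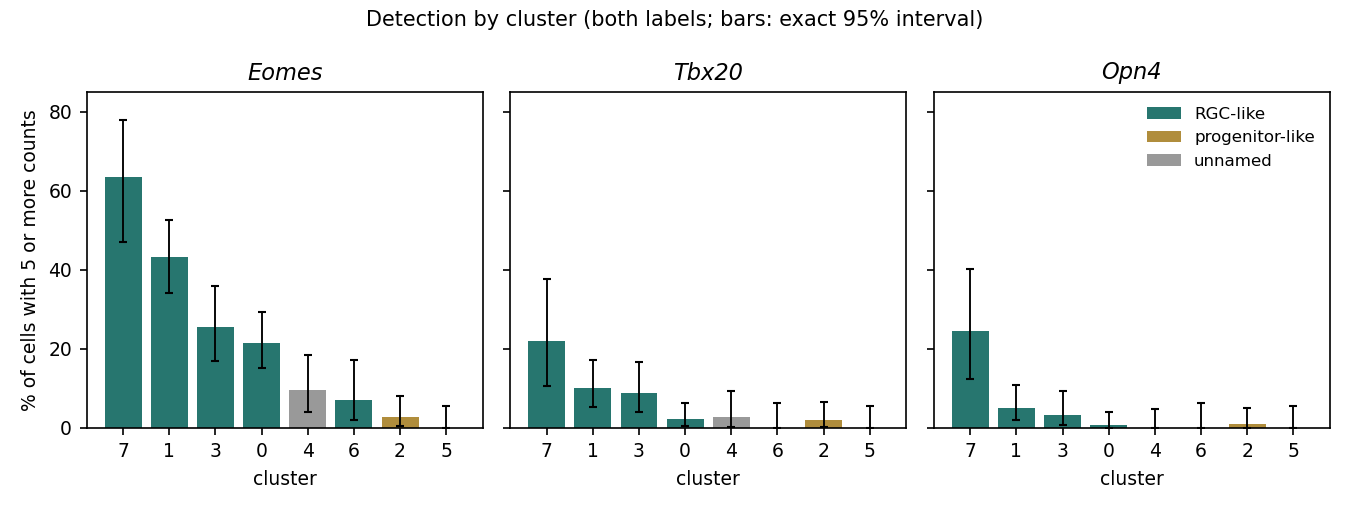
Percent of kept cells with 5 or more counts of Eomes, Tbx20 and Opn4 in each of the 8 clusters, ordered by Eomes, with exact binomial 95% intervals as error bars and both labels together. Cluster 7 is highest for all 3 genes, at 63.4%, 21.95% and 24.4%, and the progenitor-like clusters 2 and 5 are at or near 0.

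Tbx20 and Opn4 were found almost entirely inside the Eomes cells. Of 27 Tomato+ cells with Tbx20, 25 also held Eomes (92.6%, interval 75.7% to 99.1%), against 94 of the 300 without Tbx20 (31.3%, interval 26.1% to 36.9%). Of 18 Tomato+ cells with Opn4, 17 held Eomes (94.4%, interval 72.7% to 99.9%), against 33.01% of those without Opn4 (interval 27.8% to 38.6%). The reverse did not hold: 25 Eomes cells had Tbx20 (21.01%) and 17 had Opn4 (14.3%), and in the cells without Eomes these numbers were 2 (0.962%) and 1 (0.481%). Eomes was thus the broad member, and 88 Tomato+ cells held it with none of the other 3.

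Tbx20 and Opn4 also met in the same cells. Of 18 Opn4 cells, 12 held Tbx20 (66.7%, interval 40.99% to 86.7%), against 15 cells without Opn4 (4.85%). All 12 held Eomes too, and they came from 7 title numbers and from clusters 1, 3 and 7. Eomes counts in these 12 cells ran from 32 to 754 with a median of 210.5, Tbx20 counts had a median of 30.5 with a lowest value of 5, and Opn4 counts a median of 33.5 with a lowest value of 7. Their totals ran from 54681 to 379058 counts with a median of 277242, close to the 271789 of all Tomato+ cells. Another 13 Tomato+ cells held Eomes and Tbx20 alone, 5 held Eomes and Opn4 alone, and 62.4% of Tomato+ cells held none of the 4 genes.

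Exceptions were few. A Tomato+ cell with 47 Tbx20 counts held 2 Eomes counts, and one with 14 Tbx20 counts held none. The only Tomato+ cell with Opn4 outside the Eomes cells had 10 Opn4 counts and no Eomes count. In Tomato- cells the numbers were small, with Eomes in 6 of 9 Tbx20 cells and 2 of 3 Opn4 cells. One of those cells, progenitor-like and with a total of 65856 counts, had Tbx20 at 2354 CPM and no Eomes. No doublet caller was run.

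**Figure D3:**
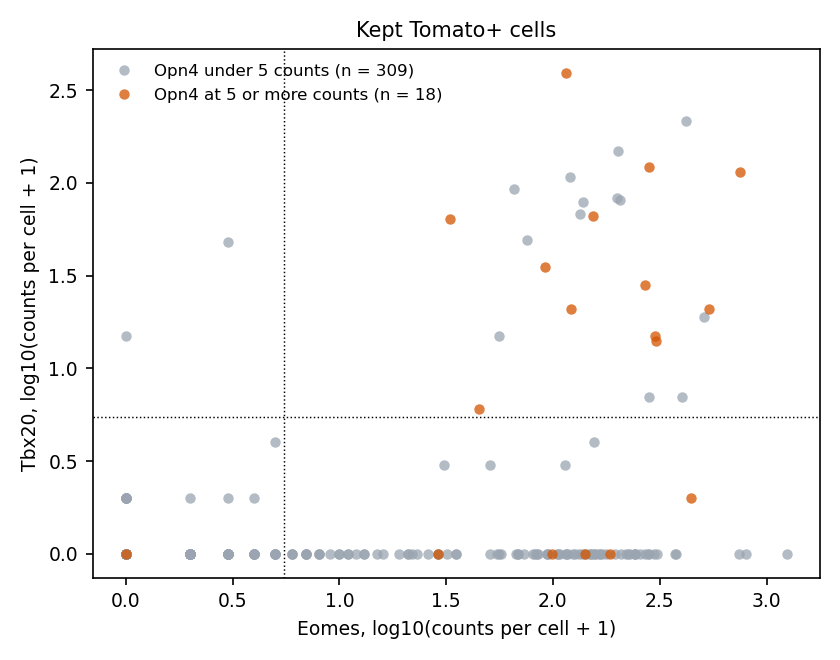
Counts per cell of Eomes and Tbx20 in the kept Tomato+ cells, each on a log10(counts + 1) axis, with the 18 cells at 5 or more Opn4 counts in orange and dotted lines at the detection mark. Cells in the upper right hold both T-box genes; 2 cells lie at the upper left with Tbx20 and fewer than 5 Eomes counts, and 17 of 18 orange points are right of the Eomes line.

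Eomes was also higher where the other genes were present. In the 30 Eomes cells with Tbx20 or Opn4 its median was 698 CPM, with a range of 115.6 to 3117 CPM. In the 89 Eomes cells without either it was 313.1 CPM, with a range of 15.8 to 2867 CPM. The ranges overlapped widely, and median totals were 293332 and 274335 counts. By CPM, Tbx20 levels did not separate by Opn4 in this way, at a median of 177.9 CPM in 12 cells with Opn4 and 173.1 CPM in 15 without. In counts the Tbx20 medians were 30.5 with Opn4 and 67 without, at median totals of 277242 and 271510.

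Slc6a4, the transporter gene behind the label, was compared by its share of cells and by its level. It was detected in 36.1% of Tomato+ cells with Eomes (interval 27.5% to 45.4%) and in 37.02% without (interval 30.4% to 43.97%), while its level was 66.7 CPM with and 126.9 CPM without. In cells with Tbx20 it was in 6 of 27 (22.2%, interval 8.62% to 42.3%) against 38% of the rest, and in cells with Opn4 in 5 of 18 (27.8%, interval 9.69% to 53.5%) against 37.2%. These intervals take in the share of the other cells. The Slc6a4 level was 32.8 CPM in cells with Tbx20 and 110.1 CPM without, and 27.6 CPM with Opn4 and 108.3 CPM without. Ephb1, the guidance receptor that turns axons back to their own side at the optic chiasm, was in 57.1% of cells with Eomes and 52.4% without, at 95.8 and 180.5 CPM. Ephb1 was in 8 of 27 cells with Tbx20 (29.6%, interval 13.8% to 50.2%) against 56.3%, and in 4 of 18 cells with Opn4 (22.2%, interval 6.41% to 47.6%) against 55.99%. The intervals for Tbx20 and Opn4 lie below those shares, and the Tbx20 and Opn4 cells overlap, so they are not separate observations.

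Shares of the POU and LIM-homeodomain factors of RGCs were compared in the same way. Pou4f2 was in 73.9% of Tomato+ cells with Eomes and 59.6% without, and Pou4f1 in 43.7% and 52.9%. Pou4f1 was in 7 of 27 cells with Tbx20 (25.9%, interval 11.1% to 46.3%) against 51.7% of the others. Isl1 was in nearly every cell, at 94.1% with and 93.8% without Eomes. Isl2, a factor of RGCs that cross the midline, was in 4.20% of cells with Eomes and 12.5% without. It was in 0 of 27 cells with Tbx20, for which the exact interval reaches 12.8% and takes in the 10.3% of cells without Tbx20.

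**Figure D4:**
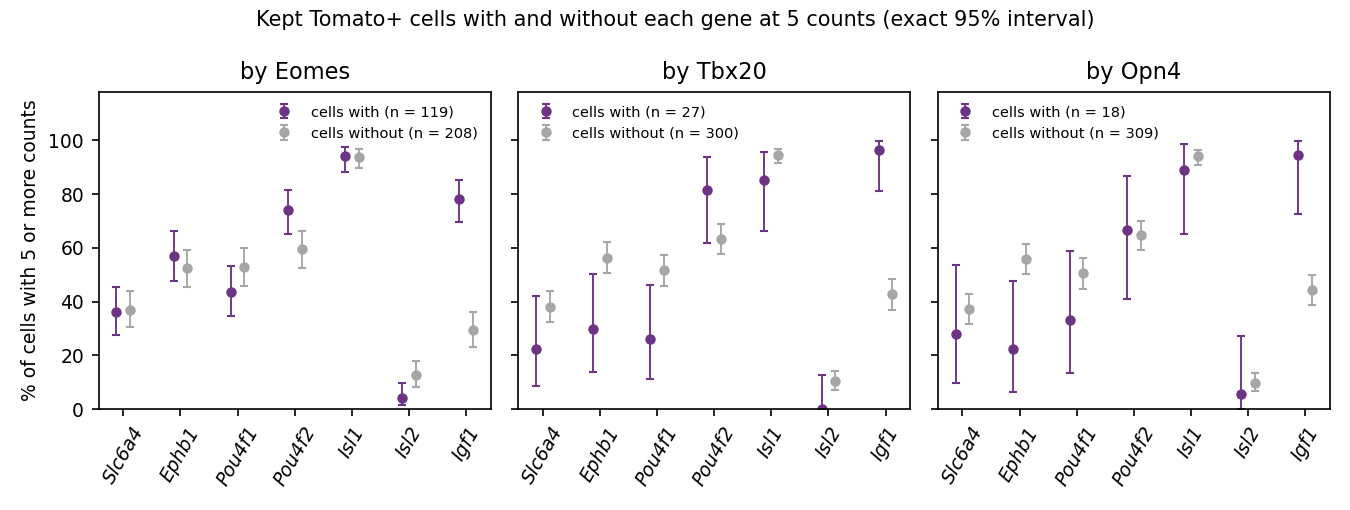
Percent of kept Tomato+ cells with 5 or more counts of 7 genes, split by whether the cell has 5 or more counts of Eomes, Tbx20 or Opn4 (purple, with; grey, without), with exact binomial 95% intervals. Slc6a4 is at 36.1% with and 37.02% without Eomes, Ephb1 is lower with Tbx20 and Opn4, and Igf1 is higher with each of the 3 genes.

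Across the kept Tomato+ cells, the genes most like each member were named by Pearson's r of log2(CPM + 10) over 9088 genes. The cells come from 1 pool, and the correlation of each member with the log2 total was near 0, at 0.0053 for Eomes and 0.0015 for Tbx20. For Eomes the 5 highest were Mast4 (r = 0.61), Igf1 (0.61), Synm (0.58), Rgs4 (0.52) and Tle4 (0.51), and Tbx20 ranked at position 8 with 0.43. Igf1, the insulin-like growth factor, was in 78.2% of cells with Eomes and 29.3% without, and in 26 of 27 cells with Tbx20. Lowest were Crabp1 (-0.35), which binds retinoic acid, the eye-field factor Six3 (-0.35) and the synaptic vesicle protein gene Sv2b (-0.27). Crabp1 stood at 425 CPM in cells with Eomes and 1796 CPM in cells without.

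For Tbx20 the highest were Zeb2 (0.50), a zinc-finger repressor, Clstn2 (0.46), Igf1 (0.46), Opn4 (0.45) and the synaptic vesicle gene Synpr (0.44). Zeb2 was in 85.2% of cells with Tbx20 and 23.7% without. Lowest were Six3 (-0.30), Pax6 (-0.22) and Ablim1 (-0.22), and Six3 was in 62.96% of cells with Tbx20 and 93% without. Opn4 was detected in fewer cells than the 20 set for this description, so its genes were added after its values were seen. They were Tbx20 (0.45), Zeb2 (0.40), Brinp1 (0.40), Caly (0.38) and Sparcl1 (0.38), with Six3 (-0.35) and Pax6 (-0.27) at the low end. Six3 was thus among the 3 lowest genes for Eomes, Tbx20 and Opn4, the members for which this was computed, at 50% of cells with Opn4 against 92.9% without. The cells with these members overlap, so the 3 results are not separate observations.

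Of 17 T-box family genes, 5 passed the filter of 5 counts in 5% of a group's cells, and 6 had no count in any kept cell. A gene can pass that filter through the label where it is high, as Tbx20, Opn4, Tbx3, Rrh and Irx1 did, so counts among genes that passed are a description. Beside Eomes, the family gene with a log2 ratio past 1 was Tbx3, lower in Tomato+ at 4.77 against 24.8 CPM (-1.24), where 6.72% of all genes were past -1. Tbx2, which patterns the dorsal eye, was level at 26.03 and 27.1 CPM, and Mga stood at 143.4 and 173.955 CPM. Within RGC-like cells, 1 of 6 family genes, Eomes, passed 1 and none passed -1, a mark that 1.43% of all genes there passed. Of 8 opsins, 2 passed the filter. A single one lay past the threshold, and lower in Tomato+; it was named after its value was seen, as Rrh, peropsin, at 0.0463 and 16.7 CPM (-1.41). Within RGC-like cells its log2 ratio was -0.35 and 0 opsins were past 1 or -1.

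Genes that carry the melanopsin signal were found in more cells than melanopsin itself. Of 10 such genes 6 passed the filter, with 0 past a log2 ratio of 1 in either direction and a median of 0.23, against -0.06 over all genes. Gnaq, the G protein that melanopsin couples to, was in 80.4% of Tomato+ and 53.3% of Tomato- cells. Within RGC-like cells Gnaq was in 82.2% and 77.5%, at 261.3 and 322.5 CPM, a log2 ratio of -0.29. Plcb4, the phospholipase after it, was in 44.04% and 17.7%, at 104.1 and 53.1 CPM, a log2 ratio of 0.85 that was 0.36 within RGC-like cells. The arrestins Arrb1 and Arrb2 were in 28.7% and 19.6% of Tomato+ cells. The cation channel Trpc7, singled out after its values were seen, was in 6 of 27 Tomato+ cells with Tbx20 and in 0 of 300 without, in 4 of 18 cells with Opn4 and 2 cells without, and in 6 cells with Eomes and none without. For the counts of 0 the exact intervals reach 1.22% without Tbx20 and 1.76% without Eomes.

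Among 7 genes known from adult photosensitive RGCs, 4 passed the filter and 2 were higher in Tomato+ past 1, as were 3% of all genes; within RGC-like cells the same 2 of 5 were, against 0.681% of all genes. Igf1 stood at 293.4 and 55.5 CPM (2.21, SD 1.02), with a ratio of 1.30 and an SD of 1.24 within RGC-like cells. The homeobox gene Irx1 stood at 19.2 and 1.27 CPM (1.37, SD 0.35), in 17.1% of Tomato+ and 1.38% of Tomato- cells, with a ratio of 1.25 within RGC-like cells. Its relative Irx2 was at 0.70 over all cells and -0.20 within RGC-like cells. Adcyap1, the gene of the peptide PACAP that adult photosensitive RGCs release, was at 21.8 and 18.5 CPM (0.16), and at -0.34 within RGC-like cells. By cell, the list did not move together in Tomato+. Igf1 was in 26 of 27 cells with Tbx20, but Irx2 was in 37.04% with Tbx20 and 62% without. With Opn4, Irx2 was in 33.3% of cells, and without it in 61.5%. By Eomes, Irx2 was in 61.3% with and 59.1% without. Irx1 was in 14.8% with Tbx20 and 17.3% without, and Adcyap1 in 29.6% and 15.3%. Of 6 genes tied to Tbr1 RGCs, 4 passed and 1 was past -1, as were 6.72% of all genes: Jam2, at 15.8 and 64.7 CPM (-1.53), which was -0.31 within RGC-like cells. There, 1 of 5 that passed was past -1, against 1.43% of all genes. It was Cdh8, named after its value was seen, at 2.98 and 25.5 CPM (-1.45, SD 1.14). It passed the filter through the RGC-like Tomato- cells, in 6.20% of them against 1.59% of the Tomato+ ones. Of 25 other RGC subtype factors, 23 passed, with 4 past 1 and 3 past -1 over all cells, where 3% and 6.72% of all genes were. The 4 were Lmo2 (1.44), Irx3 (1.40), Ebf1 (1.16) and Ebf3 (1.01), none of which passed 1 within RGC-like cells, where 0 were past 1 and 3 past -1, against 0.681% and 1.43% of all genes. Pou3f1 was lower in both, at -1.27 over all cells and -1.70 within RGC-like cells.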

How the data were processed

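The authors deposited 1 table of unnormalised whole-number counts per gene and cell. Its column headers end in umi, and whether a count is a molecule or a read is not stated. The submitters' processing notes name Seurat 2.3, R 3.4.4 and mm10; the aligner, counter and annotation are not given in the sources used here. The labels name SmartSeq2 and the series title C1. One column (1 of 801) bears no label's name and was left aside. Counts were summed per group and given as CPM, with log2 ratios at a pseudocount of 10 CPM. Cells were clustered with scanpy 1.11.5 and leidenalg 0.10.2 (2000 variable genes, without the members, T-box genes and opsins; 20 components, 15 neighbours, resolution 1). Clusters were named by the marker list with most of its genes raised 2-fold over the lower quartile of clusters and at 5 counts in 20% of cells, a rule settled after the clusters were seen. Cluster 6 had 11 RGC and 7 progenitor markers raised. The ratio, correlation and co-detection code was tested on simulated data. Members and lists were chosen with earlier results of these data known. Named genes are the members, Slc6a4, list genes at 5 counts in 10% of a group's cells, and the 5 highest and 3 lowest correlations of members found in at least 20 Tomato+ cells; others are said to be chosen later. The values of 1 correlated gene are not reported here. Alternatives covered the pseudocount, scaling (edgeR 4.0.16, DESeq2 1.42.0), the mitochondrial limit, the detection mark, thinning, the clustering and each title number.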

Additional observations from a re-analysis of the deposited data

Results flagged for a closer look

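Tbr1 in Tomato+ title number 6 stood at 2.08 CPM, apart from the next of the 10 Tomato+ title numbers at 0.337 CPM and from the other 8 at 0, a gap of 0.838 of the whole range, which is beyond Dixon's 95% critical value. The value comes from 3 cells. That critical value is set for normally spread values, and here 8 of the 10 numbers were at 0. The usual rate of 1 in 20 by chance can therefore not be read from it. In all, 14 ends of groups were looked at.

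In the 73 Tomato+ cells left out for more than 20% mitochondrial counts, Eomes had 5 or more counts in 20 cells (27.4%, exact interval 17.6% to 39.1%), against 1 of the 38 Tomato- cells left out (2.63%, interval 0.0666% to 13.8%). These cells entered no main comparison and were taken in only by the alternative without a mitochondrial limit. Their median totals were 94705 and 88370 counts.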

How the results depend on the processing

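Recomputed under each alternative, 8 values moved beyond the SD between title numbers or the exact interval of the share, all given here, and 0 of the ratios changed direction. With a pseudocount of 1 CPM the log2 ratio of Opn4 was 2.69 over all cells and 2.10 in RGC-like cells. Detection in Tomato+ cells at 1 count was 55.7% for Eomes and 13.1% for Tbx20, and at 20 counts 29.97% for Eomes. Opn4 cells with Eomes were 100% (14 of 14) at 20 counts and also when thinned, 92.9% to 100% over title numbers left out, and 80% at 1 count.

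Within RGC-like cells the ratio of Tbx20 ran from 0.29 (resolution 0.6) to 1.54 (class by marker counts), and from 0.44 to 0.93 without single title numbers; that of Eomes ran from 1.25 to 2.26 over the same class settings. Over all cells, leaving out single title numbers gave 2.41 to 2.74 for Eomes, 0.77 to 1.09 for Tbx20 and 0.86 to 1.08 for Opn4, so Opn4 lies on either side of a ratio of 1, and with 1 CPM added in RGC-like cells its ratio of 2.10 exceeded the 1.83 of Eomes. Without the filter on low counts, 2 rather than 1 of the genes tied to Tbr1 RGCs were past -1 over all cells. No paired analysis was possible because no cell is tied to an animal, title numbers do not recur between groups and no result comes from a test. Depth limits Tbr1 most: with each cell thinned to 94783 counts, 0 cells held 5 Tbr1 counts and 1.02% of Tomato+ cells held at least 1.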
